A study of Mus musculus with 26 samples.

Results

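The matrix metalloproteinases (MMPs) and their tissue inhibitors (TIMPs) were examined as 10 genes: *Mmp2*, *Mmp3*, *Mmp9*, *Mmp10*, *Mmp11*, *Mmp13*, *Mmp14*, *Timp1*, *Timp2* and *Timp3*. They were taken by gene symbol from the deposited table of FPKM values (fragments for each kilobase of transcript after scaling to library size), in which each symbol matched 1 row, so that 10 of 52454 symbols were followed across 10 RNA-seq libraries. The study asked how the de novo DNA methyltransferases DNMT3A and DNMT3B act during mouse development, and each condition was represented by 1 library. Differences are therefore differences between libraries, with no check by replicates and no p-value.

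Of the 10 libraries, 2 were 2i-MEFs at passage 1, that is, embryonic fibroblasts grown from E14.5 chimeric embryos made with female F1 (129X1/SvJ and MSM/Ms) ES cells kept in 2i/L medium, in which *Dnmt3a* or *Dnmt3b* had been disrupted with CRISPR/Cas9. Each 2i-MEF genotype came from clones of ES cells carrying GFP and a resistance gene, and host cells were removed by G418 selection and by sorting for GFP. A further 4 libraries were passage 1 MEFs of male E14.5 C57BL6 embryos labelled *Dnmt3a* WT or *Dnmt3a* KO, each treated for 2 days with DMSO or with 10 µM GSK126, an inhibitor of the histone H3K27 methyltransferase EZH2. The last 4 libraries were E14.5 heart and liver of male C57BL6 embryos labelled WT or *Dnmt3a* KO. Heart and liver of a label share a number in their sample titles and were therefore read as coming from 1 embryo. The knockout allele of the MEFs, hearts and livers was carried by the germline of mice bred as heterozygotes, so it was present in all cells of a knockout embryo. WT 2i-MEFs were not analysed here, so that the 2i-MEF comparison sets 1 knockout against the other.

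MMPs are zinc-dependent endopeptidases that cut extracellular matrix proteins and are made as inactive precursors. The gelatinases (MMP2, MMP9) cut denatured collagen and type IV collagen, the collagenases (MMP13 among them) cut fibrillar collagen, and the stromelysins (MMP3, MMP10) have broad matrix substrates and can activate other MMPs. MMP14 is anchored in the plasma membrane and, together with TIMP2, forms the complex that activates the MMP2 precursor, while MMP11 is cleaved by furin inside the cell. TIMPs bind the active site of MMPs, and TIMP3, which is held in the matrix, also inhibits several ADAM and ADAMTS proteases. In fibroblasts, *Mmp3*, *Mmp10* and *Mmp13* are known as inducible genes with AP-1 sites near their start, whereas *Mmp2*, *Mmp14* and *Timp2* are known for steady expression in mesenchyme.

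Depth, recovered from the steps between low FPKM values, was 9170798 to 26216641 reads a library. The 8 fibroblast markers summed to between 5041 and 12761 FPKM in the 6 fibroblast libraries, the 7 cardiomyocyte markers to 22625 and 25553 FPKM in the hearts and the 7 hepatocyte markers to 14121 and 23542 FPKM in the livers. *Dnmt3a* stood at 4.21 FPKM in *Dnmt3a* KO and 23.9 in *Dnmt3b* KO 2i-MEFs. In the MEFs it was higher in the libraries labelled *Dnmt3a* KO (85.7 with DMSO and 84.5 with GSK126) than in those labelled WT (26.1 and 19.3), and also in the heart labelled *Dnmt3a* KO (125 against 55.0), but lower in the liver labelled *Dnmt3a* KO (12.7 against 53.5). A level over the whole gene also counts reads outside the disrupted part. The MEF and heart levels were not lower under the knockout label, and they cannot show whether the disrupted part was read. The paper reports less DNA methylation at the *Hoxb* cluster in *Dnmt3a* KO heart and liver, and *Pax8* derepression in *Dnmt3a* KO MEFs. The MEF, heart and liver libraries are called "labelled *Dnmt3a* KO" throughout.

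**Figure D1:**
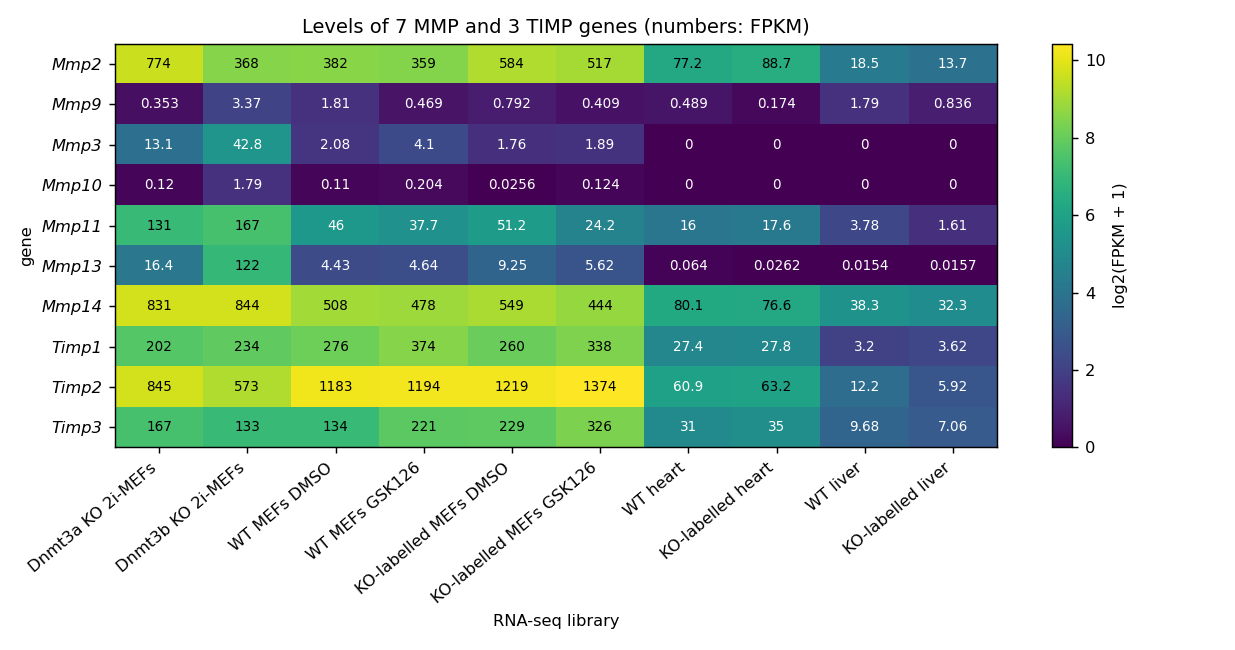
Levels of the 10 genes (rows) in the 10 libraries (columns), with the FPKM printed in each cell and the colour showing log2(FPKM + 1). *Mmp2*, *Mmp14* and *Timp2* lie between 359 and 1374 FPKM in all 6 fibroblast libraries, and all members but *Mmp9* are higher in every fibroblast library than in every tissue library, for *Mmp10* by as little as 1 read, under the limit that a count of 0 allows.

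*Mmp2*, *Mmp14* and *Timp2*, the protease, its membrane-bound activator and the inhibitor that joins them, were the highest members in 5 of the 6 fibroblast libraries, and also in WT heart, in the heart labelled *Dnmt3a* KO and in WT liver. In WT MEFs with GSK126, *Timp1* stood above *Mmp2*, at 374 against 359 FPKM. *Timp2* reached 1374 FPKM in the MEFs labelled *Dnmt3a* KO with GSK126, rank 68 of all symbols in that library. *Mmp3*, *Mmp11* and *Mmp13* took intermediate levels that differed between kinds of fibroblast, and *Mmp9* and *Mmp10* never exceeded 3.37 and 1.79 FPKM. Members with several transcripts are compared here by FPKM, which divides by transcript length.

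*Mmp2* (chr8:92827291-92853420, plus strand, mm10), the gelatinase of mesenchymal cells, measured 774 FPKM in *Dnmt3a* KO and 368 in *Dnmt3b* KO 2i-MEFs. In the embryo-derived MEFs it measured 382 and 359 FPKM in WT and 584 and 517 in those labelled *Dnmt3a* KO (DMSO first, then GSK126). In heart it measured 77.2 (WT) and 88.7 (labelled *Dnmt3a* KO) FPKM, and in liver 18.5 and 13.7. The *Dnmt3a* KO 2i-MEFs were thus the highest library, the fibroblasts did not overlap the hearts, and the hearts did not overlap the livers.

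*Mmp9* (chr2:164940780-164955850, plus strand), the gelatinase of neutrophils, macrophages and osteoclasts, was low throughout. It measured 0.353 FPKM in *Dnmt3a* KO and 3.37 in *Dnmt3b* KO 2i-MEFs, about 11 and 92 reads if all came from the longest transcript. MEFs held 1.81 and 0.469 FPKM in WT and 0.792 and 0.409 in those labelled *Dnmt3a* KO (DMSO first), in heart 0.489 and 0.174 and in liver 1.79 and 0.836 (WT first). It was the only member whose fibroblast and tissue values overlapped, and the only one higher in both livers than in both hearts. The 7 neutrophil and granulocyte markers, *Mpo*, *Elane* and *S100a9* among them, summed to 849 and 743 FPKM in liver, 8.52 and 32.6 in heart (WT first) and 0.195 to 1.55 in the fibroblasts. They were higher in the livers than in the hearts, as *Mmp9* was, and near 0 in the *Dnmt3b* KO 2i-MEFs. In the heart labelled *Dnmt3a* KO, where *Mmp9* was lower, *Mpo*, *Elane* and *Prtn3* were lower than in WT heart and *S100a8*, *S100a9*, *Ltf* and *Ngp* higher. Their part in the *Mmp9* level was not tested.

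*Mmp13*, *Mmp3* and *Mmp10* lie in this order on the plus strand of chromosome 9, within a cluster of MMP genes, at chr9:7272514-7283331, chr9:7445822-7455975 and chr9:7502352-7510240. The 250 bases before their RefSeq starts (GRCm38.p6) are shown because these 3 genes were higher together in *Dnmt3b* KO 2i-MEFs. Capitals mark matches to TGANTCA, the letters bound by AP-1, and to TATAAA, the TATA box, each sequence running 5′ to 3′. The windows are chr9:7272264-7272513, chr9:7445572-7445821 and chr9:7502092-7502341.
Mmp13: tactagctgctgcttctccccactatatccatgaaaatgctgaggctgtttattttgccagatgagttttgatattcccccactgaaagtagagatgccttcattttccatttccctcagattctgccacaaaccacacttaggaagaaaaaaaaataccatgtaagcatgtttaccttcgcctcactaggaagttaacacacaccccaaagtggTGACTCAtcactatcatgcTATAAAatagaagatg
Mmp3: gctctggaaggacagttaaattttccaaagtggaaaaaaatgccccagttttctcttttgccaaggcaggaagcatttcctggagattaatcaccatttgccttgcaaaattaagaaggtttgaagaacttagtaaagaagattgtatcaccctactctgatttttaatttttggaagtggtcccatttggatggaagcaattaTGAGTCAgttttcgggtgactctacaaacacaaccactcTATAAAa
Mmp10: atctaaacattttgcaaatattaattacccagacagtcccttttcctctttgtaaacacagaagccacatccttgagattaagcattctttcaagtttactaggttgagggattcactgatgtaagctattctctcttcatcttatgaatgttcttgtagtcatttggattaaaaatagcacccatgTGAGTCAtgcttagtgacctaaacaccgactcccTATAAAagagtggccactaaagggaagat
The TGANTCA match began 35 bases before the start of *Mmp13*, 46 before that of *Mmp3* and 63 before that of *Mmp10*, and a TATAAA match followed it 16, 7 and 29 bases before the start. TGANTCA reads the same on both strands and was present in 6.75% of 32841 RefSeq windows of the same length, and TATAAA in 12.4% on either strand, 7.59% on the strand of the gene. These matches did not overlap each other. Each of these windows held 1 CG dinucleotide, against a median of 6 over all windows.

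*Mmp14* is printed for contrast (chr14:54431348-54431597, plus strand), with its CG dinucleotides in capitals, since its level hardly differed between the 2i-MEF libraries.
Mmp14: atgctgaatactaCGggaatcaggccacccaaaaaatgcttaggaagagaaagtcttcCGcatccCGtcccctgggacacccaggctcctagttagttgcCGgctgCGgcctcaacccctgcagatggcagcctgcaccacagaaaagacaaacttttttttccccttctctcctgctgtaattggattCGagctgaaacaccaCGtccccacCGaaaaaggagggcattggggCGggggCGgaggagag
It held 10 CG dinucleotides and neither motif. Among the other members with an entry, CG dinucleotides numbered 14 for *Mmp11*, 6 for *Timp1*, 21 for *Timp2* and 18 for *Timp3*, also without either motif. Windows were found for 8 of the 10 members, *Mmp2* and *Mmp9* having none. The printed windows were chosen by the 2i-MEF levels of their genes, so a link between sequence and level was not tested. The windows of *Mmp11* and *Timp2* and part of that of *Timp3* lie inside the gene as GENCODE draws it.

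*Mmp13*, the collagenase of bone and cartilage, measured 16.4 FPKM (442 reads) in *Dnmt3a* KO and 122 (2773 reads) in *Dnmt3b* KO 2i-MEFs. In the MEFs it measured 4.43 and 4.64 FPKM in WT and 9.25 and 5.62 in those labelled *Dnmt3a* KO (DMSO first). In the tissues it rested on 3 reads in WT heart and 1 read in each of the other 3 libraries. The lowest fibroblast library, WT MEFs with DMSO (197 reads), thus stood 69.2-fold above WT heart in FPKM, with a 95% counting interval of 23.3 to 339 that rests on those 3 reads.

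*Mmp3*, stromelysin-1, measured 13.1 FPKM (229 reads) in *Dnmt3a* KO and 42.8 (628 reads) in *Dnmt3b* KO 2i-MEFs. MEFs gave 2.08 and 4.10 FPKM in WT and 1.76 and 1.89 in those labelled *Dnmt3a* KO (DMSO first). No read was recovered in the 4 tissue libraries, which allows a level of up to 0.0715 to 0.121 FPKM (3 reads), so that its lowest fibroblast level was at least 14.4-fold higher. These limits cover counting error only.

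*Mmp10*, stromelysin-2, measured 1.79 FPKM (25 reads) in *Dnmt3b* KO 2i-MEFs and 0.120 (2 reads) in *Dnmt3a* KO 2i-MEFs. The 4 MEF libraries held 1 to 6 reads each, or 0.0256 to 0.204 FPKM, and the tissues none, which allows up to 0.0752 to 0.128 FPKM. Only the *Dnmt3b* KO 2i-MEFs held more reads than a handful. Of the other fibroblasts, WT MEFs with GSK126 (0.204 FPKM) alone lay above the limit of every tissue library. That comparison leaves out the counting error of its own few reads. For the rest, a difference from all tissue libraries was not detectable at this depth.

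*Mmp11* (chr10:75923222-75936496, minus strand), stromelysin-3 of stromal cells, measured 131 FPKM in *Dnmt3a* KO and 167 in *Dnmt3b* KO 2i-MEFs. It measured 46.0 and 37.7 FPKM in WT MEFs and 51.2 and 24.2 in MEFs labelled *Dnmt3a* KO (DMSO first), 16.02 and 17.6 in heart and 3.78 and 1.61 in liver (WT first). The order was 2i-MEFs, MEFs, heart, liver without overlap, and within both MEF labels the GSK126 library was the lower one. *Chchd10* overlaps *Mmp11* on the opposite strand and stood at 618 and 602 FPKM in heart, 198 and 187 in liver (WT first) and 6.21 to 147 FPKM in the fibroblasts. Whether the counting used the strand is not stated, so reads of the overlapping ends of both genes may not be told apart.

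*Mmp14* (chr14:54431612-54445364, plus strand), the membrane-type protease, measured 831 FPKM in *Dnmt3a* KO and 844 in *Dnmt3b* KO 2i-MEFs, and between 443.7 and 549 in the 4 MEF libraries. In the tissues it measured 80.1 and 76.6 FPKM in heart and 38.3 and 32.3 in liver (WT first). The order was again 2i-MEFs, MEFs, heart, liver, and of the 10 members it differed least between the 2i-MEF libraries.

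*Timp1* (chrX:20870166-20874735, plus strand), the inducible inhibitor, measured 202 FPKM in *Dnmt3a* KO and 234 in *Dnmt3b* KO 2i-MEFs. In the MEFs it measured 276 and 374 FPKM in WT and 260 and 338 in those labelled *Dnmt3a* KO (DMSO first), in heart 27.4 and 27.8 and in liver 3.20 and 3.62 (WT first). The MEFs lay above the 2i-MEFs, and both GSK126 libraries above both DMSO libraries. *Timp1* lies inside *Syn1*, which is on the other strand and at no more than 2.75 FPKM in any library.

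*Timp2* (chr11:118301069-118355740, minus strand), the inhibitor that takes part in MMP2 activation, measured 845 FPKM in *Dnmt3a* KO and 573 in *Dnmt3b* KO 2i-MEFs and between 1183 and 1374 in the 4 MEF libraries. In heart it measured 60.9 and 63.2 FPKM and in liver 12.2 and 5.92 (WT first). It was the member with the highest level in all MEF libraries and lay lower, without overlap, in the 2i-MEFs. *Cep295nl* overlaps *Timp2* on the same strand and did not exceed 6.12 FPKM in any library.

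*Timp3* (chr10:86300372-86349506, plus strand), the matrix-bound inhibitor, measured 167 FPKM in *Dnmt3a* KO and 133 in *Dnmt3b* KO 2i-MEFs. Among the MEFs it measured 134 and 221 FPKM in WT and 229 and 326 in those labelled *Dnmt3a* KO (DMSO first), in heart 31.0 and 35.0 and in liver 9.68 and 7.06 (WT first). The 2i-MEF and MEF values overlapped, and the highest library was that labelled *Dnmt3a* KO with GSK126. *Timp3* lies inside *Syn3* on the other strand, which stayed at or under 0.713 FPKM.

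The balance between the summed protease and inhibitor transcripts differed between the kinds of sample. The 7 MMP members summed to 1766 and 1550 FPKM in *Dnmt3a* KO and *Dnmt3b* KO 2i-MEFs and the 3 TIMP members to 1214 and 940, a ratio of 1.45 and 1.65. In the 4 MEF libraries the TIMP sum was the higher one, with MMP-to-TIMP ratios of 0.593 and 0.495 in WT and 0.701 and 0.487 in those labelled *Dnmt3a* KO (DMSO first). In heart the ratio was 1.46 and 1.45 and in liver 2.49 and 2.91 (WT first), at far lower sums. The MMP sum was thus above the TIMP sum in 6 of 10 libraries, and also in 6 when all 23 *Mmp* genes and 4 *Timp* genes measured were summed. *Mmp2* and *Mmp14* made up 78.3% of the MMP sum in *Dnmt3b* KO 2i-MEFs and 90.3% to 96.75% elsewhere, and *Timp2* was the largest part of the TIMP sum in all libraries but the liver labelled *Dnmt3a* KO, where it gave 35.7% beside 42.5% from *Timp3*. These are sums of transcript levels and do not measure protein or enzyme activity.

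**Figure D2:**
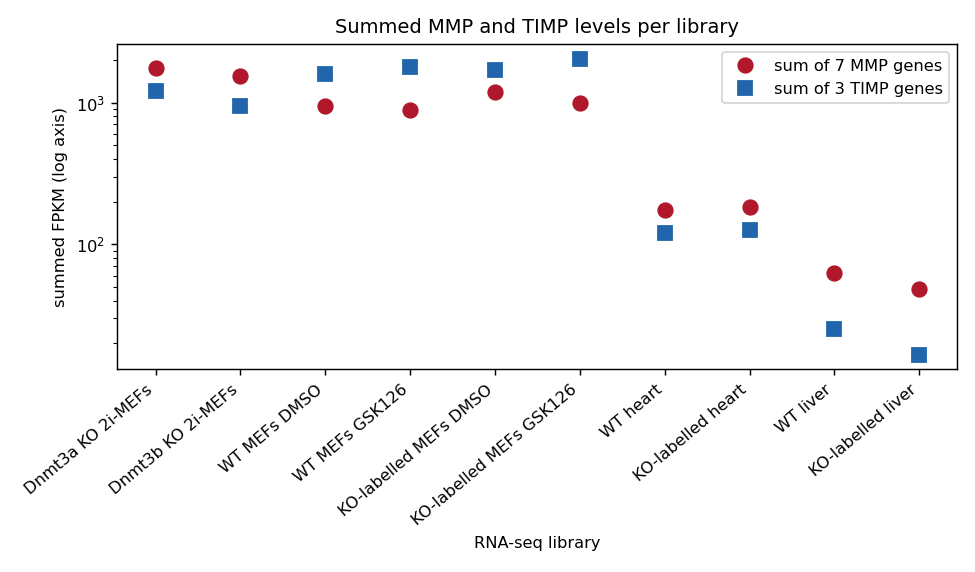
Summed FPKM of the 7 MMP members (circles) and the 3 TIMP members (squares) in each library, on a log axis. The squares lie above the circles in the 4 MEF libraries and below them in the 2i-MEFs, hearts and livers.

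The first comparison set *Dnmt3a* KO against *Dnmt3b* KO 2i-MEFs. *Mmp13*, *Mmp9*, *Mmp3* and *Mmp10* were lower in *Dnmt3a* KO by at least 2-fold in FPKM + 1, and *Mmp2* was higher by as much, so that 5 of 10 members passed this size. Of all 52454 symbols, 1.43% were higher and 0.906% lower by this rule, and of those with at least 1 FPKM in 1 of the 2 libraries, as all 10 members had, 5.52% and 3.49%. *Mmp13* differed most, by -2.83 on the log2 scale of FPKM + 1. In FPKM it was 7.48-fold higher in *Dnmt3b* KO (95% counting interval 6.76 to 8.29).

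*Mmp3* was 3.27-fold higher in *Dnmt3b* KO (interval 2.81 to 3.82) and *Mmp9* 9.55-fold (5.32 to 20.7), with log2 ratios of -1.64 and -1.69. *Mmp10*, at 2 against 25 reads, had a ratio of 14.9 with an interval of 3.71 to 130. *Mmp2* was 2.10-fold higher in *Dnmt3a* KO (2.05 to 2.15), a log2 ratio of 1.07. The gelatinases MMP2 and MMP9 thus differed in opposite directions, while *Mmp3*, *Mmp10* and *Mmp13* of the chromosome 9 cluster differed in 1 direction.

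*Timp2* was 1.47-fold and *Timp3* 1.26-fold higher in *Dnmt3a* KO, and *Mmp11* and *Timp1* were 1.27-fold and 1.16-fold higher in *Dnmt3b* KO. *Mmp14* had a ratio of 0.985, with an interval from 0.968 to 1.002 that covers counting error alone. The median log2 ratio was -1.32 over the 7 MMP members and 0.33 over the 3 TIMP members, beside 0.02 over the 12181 symbols with at least 1 FPKM in both libraries. That MMP median is the ratio of *Mmp10*, which rests on few reads. The MMP sum lay the other way, at 1766 FPKM in *Dnmt3a* KO against 1550 in *Dnmt3b* KO. Where a gene has several transcripts, reads were taken from the longest, and its interval would be wider with shorter ones.

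**Figure D3:**
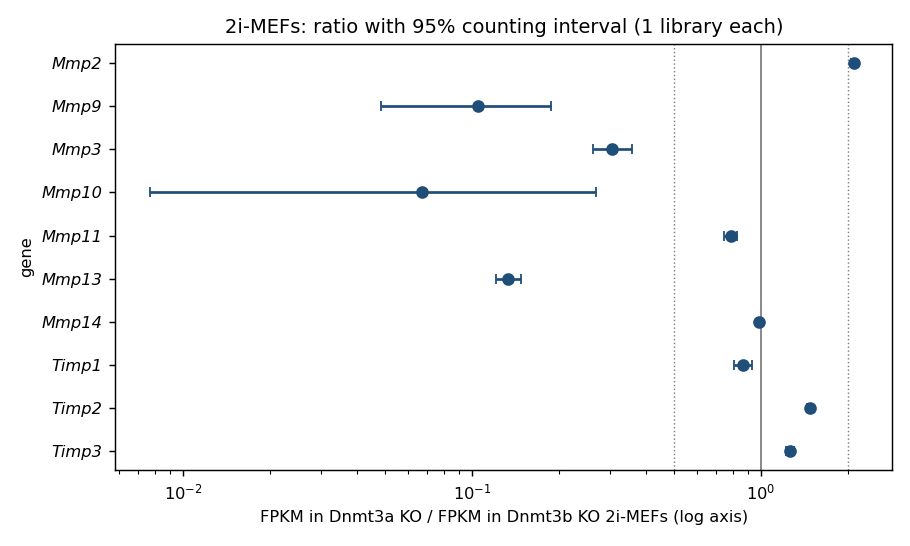
Ratio of the FPKM in *Dnmt3a* KO to that in *Dnmt3b* KO 2i-MEFs for each member, on a log axis, with 95% counting intervals from the recovered reads and dotted lines at 2-fold. *Mmp9*, *Mmp3*, *Mmp10* and *Mmp13* lie left of the lower dotted line, *Mmp2* just right of the upper one, and the other 5 between them.

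Beside these members, other genes of the same system showed the following in the 2i-MEFs. Of 11 other secreted MMPs, 1 passed 2-fold, the macrophage elastase *Mmp12*, at 1.69 FPKM in *Dnmt3a* KO and 6.70 in *Dnmt3b* KO, which lies in the same chromosome 9 cluster. *Mmp27*, also of that cluster, lay the other way at 0.766 and 0.384 FPKM without passing 2-fold. None of 5 other membrane-type MMPs passed. Of 7 plasminogen and proprotein activators, *Plau*, the urokinase gene, was lower in *Dnmt3a* KO (20.3 against 52.7 FPKM) and *Pcsk5* higher (3.95 against 1.33). *Eln*, the elastin gene, was the 1 of 6 fibrillar collagen and elastin genes that passed, at 2010 FPKM in *Dnmt3a* KO and 647 in *Dnmt3b* KO.

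Of 7 AP-1 subunit genes, *Fos* (71.5 against 15.5 FPKM) and *Fosb* (4.76 against 0.88) passed 2-fold as higher in *Dnmt3a* KO, the opposite direction to *Mmp3*, *Mmp10* and *Mmp13*, and none was lower by as much. *Fosl1* (1.64 against 4.05) and *Fosl2* (16.6 against 19.8) lay lower in *Dnmt3a* KO without passing 2-fold in FPKM + 1. The 7 chondrocyte and bone markers summed to 60.0 FPKM in *Dnmt3a* KO and 54.0 in *Dnmt3b* KO, *Col2a1* being higher in *Dnmt3a* KO (20.8 against 1.29) and *Col10a1* at 23.0 against 39.6. Macrophage markers summed to 13.2 FPKM in *Dnmt3a* KO and 4.73 in *Dnmt3b* KO, with *C1qa*, *C1qb* and *C1qc* at least 2-fold higher in *Dnmt3a* KO, the opposite direction to *Mmp9* and *Mmp12*. Skeletal muscle markers summed to 22.3 and 58.1 FPKM, with *Acta1*, *Tnni1* and *Des* at least 2-fold lower in *Dnmt3a* KO, as 4 MMP members were. Granulocyte markers summed to 1.15 and 0.979 FPKM, with *Elane*, *S100a8*, *S100a9* and *Ngp* at 0. The part of AP-1 levels, cartilage cells, muscle cells and macrophages in the MMP differences was not tested.

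In MEFs with DMSO, the library labelled *Dnmt3a* KO was compared with WT, and 0 of 10 members passed 2-fold in FPKM + 1, beside 1.63% of all symbols and 6.26% of those with at least 1 FPKM in 1 of the libraries. *Mmp13* came nearest, 2.09-fold higher in FPKM in the library labelled *Dnmt3a* KO (counting interval 1.77 to 2.47), a log2 ratio of 0.92 in FPKM + 1. *Timp3* was 1.71-fold higher and *Mmp2* 1.53-fold higher. *Mmp9* was 2.28-fold lower in FPKM (1.65 to 3.23), with a log2 ratio of -0.65 in FPKM + 1. With GSK126, again 0 of 10 members passed, beside 1.51% and 5.83%. *Mmp3* came nearest there, at 1.89 against 4.10 FPKM (log2 ratio -0.82), followed by *Mmp11* (-0.62), *Timp3* (0.56) and *Mmp2* (0.52).

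Taking the DMSO and GSK126 libraries of each label together, a grouping made after the values were seen, *Mmp2*, *Mmp13*, *Timp2* and *Timp3* were higher in both libraries labelled *Dnmt3a* KO than in both WT libraries and *Mmp3* was lower. Such a gap was seen in 8.62% of all symbols in the first direction and 7.15% in the second, and in 22.4% and 18.7% of those with at least 1 FPKM in a library. The gaps of *Timp2* and *Timp3* were narrow, 1219 against 1194 and 229 against 221 FPKM, and both genes overlapped once the libraries were scaled by their median ratio. Whether the DMSO and GSK126 libraries of a label came from 1 culture is not stated. All 7 macrophage markers were lower in both MEF libraries labelled *Dnmt3a* KO, *C1qa* at 142 and 155 against 227 and 243 FPKM. Of the 7 chondrocyte and bone markers, 5 were higher in both (*Col2a1*, *Acan*, *Col10a1*, *Runx2* and *Sp7*), *Col2a1* at 196.1 and 223.3 against 60.2 and 79.7 FPKM and *Col10a1* at 35.3 and 29.1 against 4.50 and 8.53. Of the 7 AP-1 subunit genes, *Fos*, *Fosb*, *Jun* and *Junb* were higher in both libraries labelled *Dnmt3a* KO, *Fos* at 219.9 and 249 against 106 and 94.2 FPKM, the direction of *Mmp13*, and *Fosl2* was lower, the direction of *Mmp3*. Of the 8 fibroblast markers, *Col1a2*, *Thy1*, *Dcn* and *Lum* were lower in both, *Lum* at 50.3 and 43.5 against 87.6 and 88.5 FPKM, and *Pdgfrb* was higher. The part of these genes and cell types in the member values was not tested.

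GSK126 was compared with DMSO within each label, with the same 4 libraries. In WT MEFs 0 of 10 members passed 2-fold, beside 0.967% of all symbols and 3.76% of those with at least 1 FPKM in 1 of the libraries. *Mmp9* (log2 ratio -0.93, about 27 against 97 reads), *Mmp3* (0.72) and *Timp3* (0.71) differed most. In the MEFs labelled *Dnmt3a* KO, 1 of 10 members passed, *Mmp11*, which was 2.11-fold lower with GSK126 (1.97 to 2.27), beside 0.846% of all symbols lower and 3.25% with at least 1 FPKM. There *Mmp13* had a log2 ratio of -0.63 and *Timp3* one of 0.51.

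Both GSK126 libraries lay above both DMSO libraries for *Timp1*, by 1.35-fold in WT and 1.30-fold in the MEFs labelled *Dnmt3a* KO, and for *Mmp10*, at 6 and 4 against 3 and 1 reads. Both lay below for *Mmp9*, *Mmp11* and *Mmp14*. *Timp2* and *Timp3* were also higher in both GSK126 libraries once the libraries were scaled by their median ratio, which brought the members apart from 5 to 7. Over all symbols 5.57% were higher and 7.06% lower without overlap, and 15.2% and 17.9% of those with at least 1 FPKM. Of the matrix proteins that these proteases cut, *Col1a1*, *Col3a1*, *Col5a1* and *Col5a2* (4 of 6 fibrillar collagen and elastin genes) were lower in both GSK126 libraries. *Col3a1* stood at 2398 and 1193 FPKM with GSK126 and 3833 and 2754 with DMSO (WT first). Also lower in both were 5 of 7 basement membrane genes, 4 of 6 ADAM and ADAMTS genes and, of 8 fibroblast markers, *Col1a1*, *Pdgfra* and *Postn*. Of 7 skeletal muscle markers, *Myog*, *Myh3*, *Tnni1* and *Des* were higher in both, *Des* at 11.9 and 15.3 against 7.10 and 7.97 FPKM (WT first). *Myog* and *Myh3* did not exceed 0.219 and 0.276 FPKM in these MEFs. *Acta1* was lower with GSK126 within each label, at 14.7 and 21.7 against 15.5 and 40.5 FPKM (WT first). The 7 markers summed to 28.4 and 38.4 FPKM with GSK126 against 23.4 and 48.9 with DMSO (WT first). The part of these cell types in the member values was not tested.

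**Figure D4:**
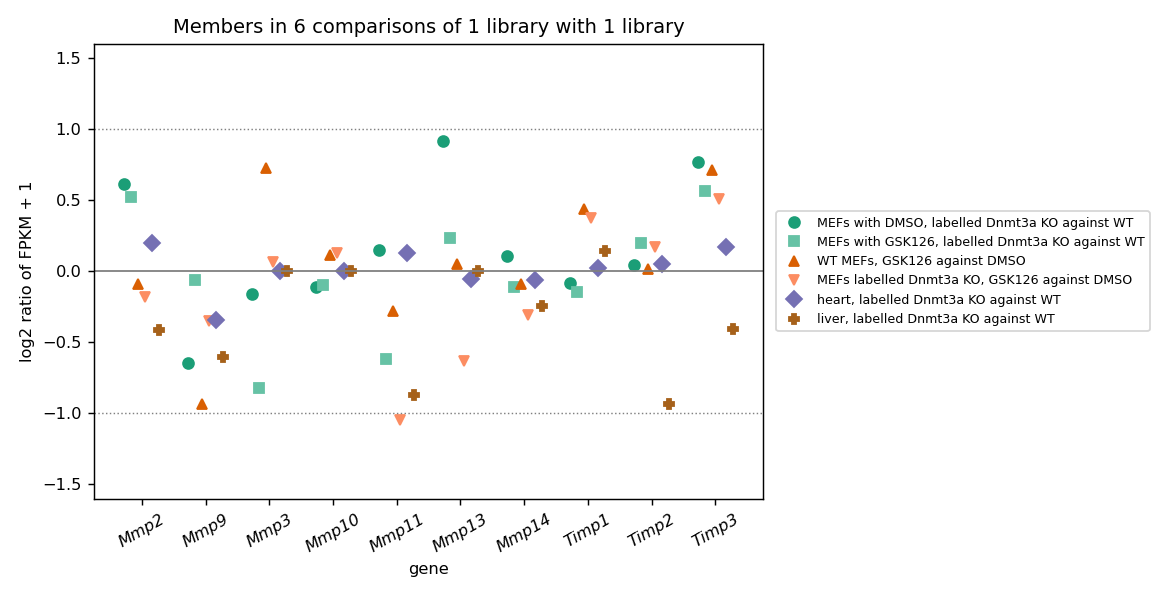
Log2 ratio of FPKM + 1 of each member in the 4 comparisons of MEF libraries and in heart and liver labelled *Dnmt3a* KO against WT, 1 library against 1 library, with dotted lines at 2-fold. Of the points shown, *Mmp11* in the MEFs labelled *Dnmt3a* KO with GSK126 against DMSO (-1.05) is the one past a dotted line.

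In E14.5 heart, 0 of 10 members passed 2-fold when the library labelled *Dnmt3a* KO was set against WT, beside 1.06% of all symbols and 4.04% of those with at least 1 FPKM in 1 of the libraries. *Mmp2* was 1.15-fold higher in the heart labelled *Dnmt3a* KO (1.10 to 1.20) and *Timp3* 1.13-fold (1.07 to 1.19), and the other members over 1 FPKM differed by less, with log2 ratios of *Mmp11*, *Mmp14*, *Timp1* and *Timp2* between -0.06 and 0.13. In liver 0 of 10 passed, beside 0.932% and 3.68%. *Timp2* was 2.06-fold lower in FPKM in the liver labelled *Dnmt3a* KO (1.86 to 2.29) and *Mmp11* 2.35-fold lower (1.81 to 3.04), with log2 ratios of -0.93 and -0.87 in FPKM + 1. *Mmp9* was at about 64 against 139 reads.

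In the liver labelled *Dnmt3a* KO the median log2 ratio was -0.32 over the members, beside -0.08 over all symbols with at least 1 FPKM in both libraries. Fibroblast markers there summed to 179 against 257 FPKM in WT liver, *Thy1* being at 0.18 against 1.65, and skeletal muscle markers to 9.59 against 81.8, *Myog* being at 0.15 against 6.31. Cardiomyocyte markers summed to 16.3 against 69.6 FPKM, *Actc1* being at 3.97 against 48.5, though *Myl7* (9.69 against 9.12), *Myh6* and *Nppa* were not lower. Macrophage markers summed to 194 against 318 FPKM, hepatocyte markers to 14121 against 23542, though *Ttr* and *Hnf4a* were not lower, and erythroid markers to 86693 against 58753, a sum made up mostly of *Hba-a1* and *Hbb-bt*, while *Klf1*, *Epor* and *Slc4a1* were lower. The part of these cells in the *Timp2*, *Mmp11* and *Mmp9* values was not tested. In whole organs fewer cells of a type and less RNA per cell cannot be told apart.

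Heart and liver of the same embryo were compared next. *Mmp2*, *Mmp11*, *Mmp14*, *Timp1*, *Timp2* and *Timp3* were higher in heart by at least 2-fold in FPKM + 1 in the WT embryo and in the embryo labelled *Dnmt3a* KO, 6 of 10 members in each, and none was lower by as much. Of all symbols 5.71% and 6.59% were higher in heart, and of those with at least 1 FPKM in 1 of the libraries 20.6% and 23.7%. *Timp1* was 8.56-fold higher in WT heart (6.48 to 11.6) and 7.68-fold in the heart labelled *Dnmt3a* KO (5.81 to 10.2). *Timp2* was 4.98-fold and 10.7-fold higher, *Mmp11* 4.24-fold and 10.9-fold, *Mmp2* 4.18-fold and 6.49-fold, *Timp3* 3.20-fold and 4.96-fold and *Mmp14* 2.09-fold and 2.37-fold.

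*Mmp9* was 3.66-fold (2.38 to 5.60) and 4.79-fold (2.29 to 11.6) higher in liver. Taking both embryos together, 7 members were higher in both hearts than in both livers, the 6 above and *Mmp13* by 1 to 3 reads against 1, and *Mmp9* was lower. Over all symbols 14.9% were higher and 15.7% lower in this way, and 40.1% and 42.6% of those with at least 1 FPKM in a library. In the WT embryo the median symbol with at least 1 FPKM in both organs had a log2 ratio of -0.13, which adds 0.13 toward heart to a member's log2 ratio taken relative to it. All 7 basement membrane genes, substrates of the gelatinases, and all 6 endothelial markers were also higher in heart by at least 2-fold in both embryos, and fibroblast markers summed to 904 and 929 FPKM in heart against 179 and 257 in liver. All 7 macrophage markers were higher in both livers, summing to 318 and 194 FPKM against 97.4 and 110 in the hearts (WT first), the direction of *Mmp9*. Erythroid markers summed to between 58753 and 86693 FPKM in liver and 14320 and 19889 in heart. The part of these cell types in the member differences was not tested.

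**Figure D5:**
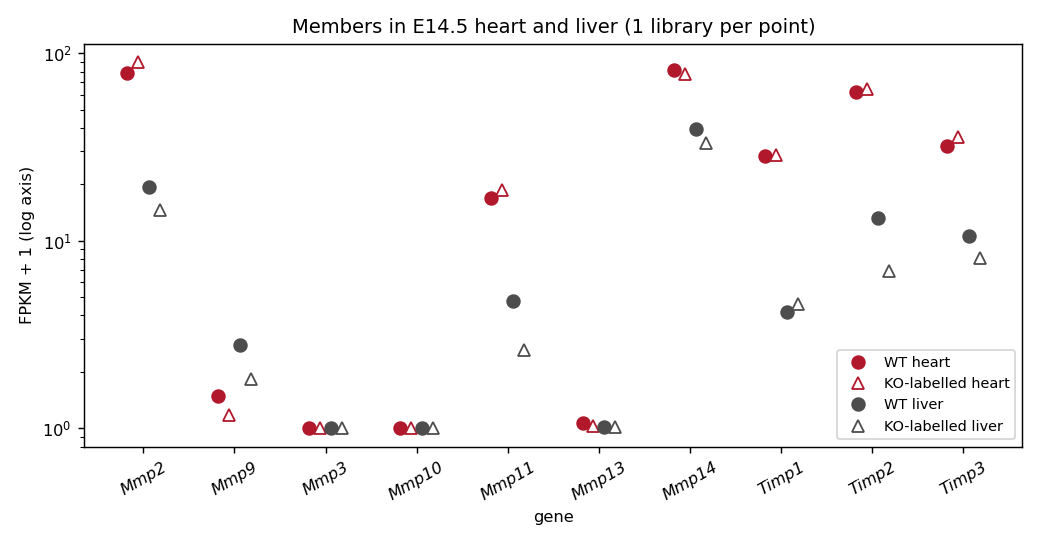
FPKM + 1 of each member in the 4 tissue libraries on a log axis, hearts in red and livers in grey, WT as filled circles and libraries labelled *Dnmt3a* KO as open triangles. Both hearts lie above both livers for *Mmp2*, *Mmp11*, *Mmp14* and the 3 TIMP genes, and both livers above both hearts for *Mmp9*.

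Set against the 4 tissue libraries, the 6 fibroblast libraries were higher without overlap for 9 of 10 members, *Mmp9* being the exception. Over all symbols 6.05% were higher and 5.33% lower in the fibroblasts in this way, and 17.8% and 15.4% of those with at least 1 FPKM in a library. The lowest fibroblast value exceeded the highest tissue value 9.07-fold for *Timp2*, 7.27-fold for *Timp1*, 5.54-fold for *Mmp14*, 4.05-fold for *Mmp2*, 3.79-fold for *Timp3* and 1.38-fold for *Mmp11*. The gap of *Mmp10* rested on 1 read in the lowest fibroblast library and was not detectable at this depth. All 8 fibroblast markers were likewise higher in every fibroblast library.

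The 2i-MEFs were compared with the MEFs of embryos, which had been treated with DMSO or GSK126. No treatment is named for the 2i-MEFs, which also differ in strain, sex, derivation from ES cells, sorting and *Dnmt3* genotype, so that these cannot be told apart. *Mmp3*, *Mmp11*, *Mmp13* and *Mmp14* were higher in both 2i-MEF libraries than in all 4 MEF libraries, and *Timp1* and *Timp2* were lower. Over all symbols 8.11% were higher and 7.55% lower in this way, and 24.1% and 21.0% of those with at least 1 FPKM in a library. For *Mmp3* and *Mmp11* the gap was at least 2-fold in FPKM + 1, 13.1 against 4.10 and 131 against 51.2 FPKM at its edges. All 7 AP-1 subunit genes were lower in the 2i-MEFs, summing to 191 to 298 FPKM against 728 to 1168 in the MEFs, and *Fosl1* stood at 1.64 and 4.05 against 17.7 to 24.5. All 7 macrophage markers were lower too, summing to between 4.73 and 13.2 against 674 to 1046 FPKM. Of the 7 chondrocyte and bone markers, *Col2a1*, *Sp7* and *Ibsp* were lower in both 2i-MEF libraries and *Acan* was higher. Those markers summed to 54.0 and 60.0 against 78.0 to 270 FPKM. Of the 8 fibroblast markers, 5 (*Col1a2*, *Pdgfrb*, *Dcn*, *Lum* and *Postn*) were higher in both 2i-MEF libraries and none was lower in both, with sums of 12175 and 12761 against 5041 to 8371 FPKM, and 5 of 6 fibrillar collagen and elastin genes were higher. No sorting of the MEFs is described, and the part of macrophages in their *Mmp9* level of 0.409 to 1.81 FPKM was not tested. The part of AP-1 levels, of fibroblast content and of cartilage and bone cells was not tested either.

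The other MMP genes fell into those with a level in fibroblasts and those at or near 0. *Mmp23* measured 55.3 to 129 FPKM in the fibroblasts, 29.6 and 36.2 in heart and 3.48 and 4.44 in liver, a pattern like that of *Mmp2*. *Mmp19* measured 16.2 to 44.3 FPKM in the fibroblasts, 32.4 and 23.9 in liver and 0.54 and 0.41 in heart (WT first), the other way round from *Mmp2*. *Mmp15*, a membrane-type MMP, measured 101 FPKM in both hearts and no more than 6.37 elsewhere, above *Mmp14* in both hearts. *Mmp12* lay at 8.89 to 10.6 FPKM in the MEFs, 1.69 and 6.70 in the 2i-MEFs and 0.401 or less in the tissues. *Mmp1b*, *Mmp7* and *Mmp20* were at 0 in all libraries, and *Timp4* did not exceed 0.255 FPKM.

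Among other inhibitors and activators, *Reck*, which encodes a membrane-anchored MMP inhibitor, measured 14.3 to 24.5 FPKM in the fibroblasts and 1.88 to 3.75 in the tissues. *Plg*, the plasminogen gene, was at 261 and 179 FPKM in liver and at 0.54 or less in the other libraries, whereas its activator *Plau* was at 20.3 to 104 FPKM in the fibroblasts and at most 5.96 in the tissues. *Serpine2*, which encodes an inhibitor of plasminogen activators and of thrombin, measured 243 and 277 FPKM in the 2i-MEFs and 344 to 799 in the MEFs. Of the 6 ADAM and ADAMTS genes whose products TIMP3 can inhibit, 5 were higher in all fibroblast than in all tissue libraries, *Adamts1* at 58.8 to 174 against at most 23.0 FPKM, and *Adam10* was the exception.

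The genes whose levels ran most like each member's were found by the Pearson correlation of log2(FPKM + 1) over the 10 libraries, among 10441 symbols that reach 10 FPKM in a library. The 10 points include 2 kinds of fibroblast culture and 2 organs, so r mostly follows the gap between cultures and tissues, and no p-value was calculated. *Serpine2* was nearest to *Timp3* (r = 0.995), *Sfxn3* to *Timp1* (0.998) and *Fkbp14*, a collagen-folding isomerase of the endoplasmic reticulum, to *Timp2* (0.998), followed by *Smo* and by *Pcolce*, which encodes an enhancer of procollagen cleavage (both 0.998 to 3 digits). *Fn1*, fibronectin, was second to *Setbp1* for *Mmp14* (both 0.997), and *P3h3*, a collagen prolyl hydroxylase, second to *Gm9747* for *Mmp2* (both 0.995).

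*Mmp13* had *Emx2* (0.983), *Cdr2l* (0.976) and *Col24a1* (0.975) as its nearest genes, of which *Emx2* stood at 29.9 FPKM in *Dnmt3b* KO and 9.37 in *Dnmt3a* KO 2i-MEFs and at 2.42 to 5.32 in the MEFs. *Mmp3* had *Pdzd8* (0.992), *Alkal1* (0.991) and *Vapa* (0.982), and *Mmp11* had *Nedd4* (0.992), *Ythdf3* (0.991) and *Parp8* (0.988). The remaining genes so named were *Ctdsp2* for *Mmp2*, *Fndc3b* for *Mmp14*, *Slc35e4* and *Chst14* for *Timp1* and *Ptk7* and *Tmbim1* for *Timp3*. Among the members themselves, *Mmp3* and *Mmp13* had an r of 0.964 and *Timp1* and *Timp2* one of 0.991, against 0.638 between *Mmp3* and *Timp2*.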

How the data were processed

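RNA-seq of 10 of the 26 samples of the series was used, and the other 16, which measured DNA methylation, were not analysed here. Polyadenylated RNA was made into stranded libraries and read as single reads. After trimming with cutadapt, the authors aligned reads to mm10 with tophat and bowtie2 on GENCODE M15, kept unique alignments with a mapping quality of at least 20 and deposited 1 table of FPKM values from cufflinks, without counts. The submitters' processing notes name cutadapt 1.9.1, TopHat2 2.1.0, Bowtie2 2.2.5 and Cufflinks 2.2.1.

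Here (Python 3.11.15, pandas 2.3.3, numpy 2.4.6) rows of a repeated symbol were summed (155 rows). Table starts count from 0, and 1 was added. Depth was recovered from the FPKM steps of 6716 genes with 1 transcript: 96.2% to 97.9% of their low values fell within 0.1 read of a whole number (20% by chance), with a fragment length of 202 bases. In simulated libraries of these 6716 genes, made and fitted with the same fragment length, the recovered depth was off by at most 0.00054%. That figure leaves out any error from the fragment length chosen for the real libraries. Counting intervals are 95% exact binomial intervals on recovered reads, cover counting error only (the reads carry no molecular identifiers), and use the longest transcript. An absent gene's limit is 3 reads.

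With 1 library per condition, comparisons used the log2 ratio of FPKM + 1, which understates changes of low genes, and calls of at least 2-fold. For sets of libraries, a gene was counted when all values of a set exceeded all of the other. Named genes were the 10 members, up to 3 genes per list and direction with the largest change of at least 2-fold or the highest level, the 3 genes most like each member that reached 10 FPKM, and *Dnmt3a*. *Fosl1*, *Fosl2*, *Jun*, *Junb*, *Mmp27*, *Runx2*, other single markers of cell types and the genes that overlap a member were named after their values were seen. The members and gene lists were chosen with earlier results of these data known. Promoter sequences are RefSeq's (GRCm38.p6). Alternatives covered the pseudocount, threshold, scaling, repeated rows, low-value filter, gap, left-out libraries and Spearman's correlation.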

Additional observations from a re-analysis of the deposited data

Results flagged for a closer look

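Some members moved in opposite directions under the same contrast in another organ or treatment, by at least 0.1 on the log2 scale of FPKM + 1 on each side. Each direction rests on 1 library against 1 library, and the difference was not tested. For the library labelled *Dnmt3a* KO against WT, *Mmp11* had log2 ratios of 0.13 in heart and -0.87 in liver, 1.0 apart, *Mmp2* 0.20 and -0.41, 0.61 apart, and *Timp3* 0.17 and -0.41, 0.58 apart. For the same contrast in MEFs, *Mmp11* had 0.15 with DMSO and -0.62 with GSK126, 0.77 apart, and *Mmp14* 0.11 and -0.11, 0.22 apart. With ratios centred on the median gene, *Mmp14* with DMSO fell to 0.079, under the size asked for. No group of libraries was large enough for a check of single outlying libraries.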

How the results depend on the processing

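Each condition has 1 library, so no difference between conditions can be set against the spread of replicates. Heart and liver are paired by embryo, as read from the numbers in the sample titles, and the MEF treatments by label. Their ratios are given within each embryo or label. Paired models that add organ and embryo, or treatment and label, would leave 1 residual degree of freedom and were not run. Of 93 alternative counts of members, 71 stayed within 1.5 times the reported one. Of 360 alternative log2 ratios of members, 325 moved by less than their counting interval, and none past 2-fold changed sign. The 5 members past 2-fold in the 2i-MEFs and the 6 between heart and liver kept their number within 1.5 times under every alternative of pseudocount, threshold and scaling.

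With a pseudocount of 0.1 FPKM, the count of 0 became 2 in MEFs with DMSO labelled *Dnmt3a* KO against WT, 1 with GSK126, 1 for GSK126 against DMSO in WT MEFs, 1 in heart and 3 in liver. With FPKM rescaled to 1 common sum per library, it became 1 in MEFs with DMSO labelled *Dnmt3a* KO against WT and 1 for GSK126 against DMSO in WT MEFs. At 1.5-fold, these MEF counts were 4 with DMSO, 2 with GSK126, 3 for GSK126 in WT MEFs and 2 rather than 1 in MEFs labelled *Dnmt3a* KO, and 3 in liver. With a gap of at least 2-fold, members without overlap fell from 6 to 2 between 2i-MEFs and MEFs, from 8 to 5 between heart and liver, and from 5 to 0 in both regroupings of the MEFs. Scaling by the median ratio lowered those by label in the MEFs from 5 to 3, *Timp2* and *Timp3* then overlapping, and raised those by treatment from 5 to 7, the same genes then being higher with GSK126. The cause was not tested.

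With each library left out in turn, members without overlap numbered 9 throughout for fibroblasts against tissues, 6 to 9 for 2i-MEFs against MEFs, 8 throughout for heart against liver, 6 to 9 by label in the MEFs and 7 to 8 by treatment. Without the MEFs labelled *Dnmt3a* KO with DMSO or with GSK126 the count by label was 8 and 9, and without either DMSO library the count by treatment was 8. Leaving out a library can only remove overlap. By Spearman's correlation, 3 of the 24 genes named as most alike were still among the first 3.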
